A study of Mus musculus with 6 samples.

Results

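The acid-base genes of the renal intercalated cell were described as 10 genes chosen by symbol: the transcription factor gene Foxi1, the proton pump subunit genes Atp6v1b1, Atp6v0d2, Atp6v1g3 and Atp6v1c2, the anion exchanger genes Slc4a1, Slc4a9 and Slc26a4, and the ammonia channel genes Rhbg and Rhcg. All 10 of 10 stood on 1 row each among the 26971 features of the count table, and all 10 passed the filter on low counts. Their levels were measured by RNA sequencing of kidney cortex from male C57BL/6 mice 1 day after surgery. All 6 libraries came from kidneys with IRI, by its usual meaning ischaemia-reperfusion injury, a halt and return of the blood supply. In 3 of them (CLK_IRI 1 to 3) the treatment was IRI, and in the other 3 (Cong_IRI 1 to 3) it was IRI with IVCC, which the study names renal congestion. They are called IRI and congested here. The labels do not expand CLK or IVCC, give no age and no uninjured kidney, and do not say whether an animal gave more than 1 library. P-values therefore measure only the spread between these samples, which may be technical. In bulk tissue fewer cells of a type and less RNA per cell cannot be told apart.

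Intercalated cells lie among the principal cells of the connecting tubule and collecting duct and set the final acid and bicarbonate content of urine. Type A cells secrete protons through an apical vacuolar proton pump, which spends ATP in its V1 sector and moves protons through its membrane V0 sector, and return bicarbonate to blood through the basolateral exchanger Slc4a1. Type B cells secrete bicarbonate through the apical exchanger Slc26a4, known as pendrin, with the pump and Slc4a9 on the basolateral side. FOXI1 is the forkhead factor required for the intercalated cell fate, and RHBG and RHCG carry ammonia across the cell.

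Promoter sequences, 250 bases before to 50 after the start site, were read from RefSeq (GRCm38.p6) for 6 of the 10 genes. The windows of the other genes were not examined, so 6 is not a count of what RefSeq holds. The shares below describe those 6 only. Because Foxi1 encodes a forkhead factor, these windows were searched on both strands for the forkhead motifs TGTTTNC and TATTTNC. A match to either was present for 5 of the 6 genes and in 30.6% of all 32851 promoters of that length (20.5% for TGTTTNC and 13.6% for TATTTNC). Rhcg had no such match in this window. The CP2 family motif, the kind recognised by TFCP2L1, was present for 5 of 6 and in 54.7% of all promoters. It overlapped none of the forkhead matches in the sequences below. A match is a description of letters and not of a bound site. Of the 4 genes shown, Atp6v1b1, Slc26a4 and Rhcg differed between replicate numbers as described below, and Atp6v1g3 lay the other way. Capitals mark the forkhead matches.
Atp6v1b1, chr6:83742767-83743066, plus strand: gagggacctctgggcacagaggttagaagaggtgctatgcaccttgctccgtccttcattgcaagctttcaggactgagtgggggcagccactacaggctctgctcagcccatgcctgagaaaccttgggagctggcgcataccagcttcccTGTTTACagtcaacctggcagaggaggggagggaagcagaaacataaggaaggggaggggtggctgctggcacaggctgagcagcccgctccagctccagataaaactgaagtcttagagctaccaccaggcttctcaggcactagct
Slc26a4, chr12:31559935-31560234, minus strand: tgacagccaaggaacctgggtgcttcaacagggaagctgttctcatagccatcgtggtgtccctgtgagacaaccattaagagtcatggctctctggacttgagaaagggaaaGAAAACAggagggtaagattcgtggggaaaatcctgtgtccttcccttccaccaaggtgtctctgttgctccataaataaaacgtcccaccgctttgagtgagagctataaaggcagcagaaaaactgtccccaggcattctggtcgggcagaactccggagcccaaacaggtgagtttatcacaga
Rhcg, chr7:79617608-79617907, minus strand: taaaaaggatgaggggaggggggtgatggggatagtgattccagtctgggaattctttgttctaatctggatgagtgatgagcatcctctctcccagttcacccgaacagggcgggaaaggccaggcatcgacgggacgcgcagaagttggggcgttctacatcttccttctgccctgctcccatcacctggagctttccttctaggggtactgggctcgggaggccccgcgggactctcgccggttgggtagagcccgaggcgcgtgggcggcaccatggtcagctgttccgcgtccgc
Atp6v1g3, chr1:138273488-138273787, plus strand: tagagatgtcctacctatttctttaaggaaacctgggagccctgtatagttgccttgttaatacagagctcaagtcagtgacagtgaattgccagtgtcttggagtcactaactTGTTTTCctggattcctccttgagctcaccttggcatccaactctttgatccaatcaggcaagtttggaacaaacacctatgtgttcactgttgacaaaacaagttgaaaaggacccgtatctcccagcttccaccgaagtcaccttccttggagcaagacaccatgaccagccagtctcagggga

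The libraries held 10865860 to 14350425 counts each. Both libraries numbered 1 stood apart from the other 4. In edgeR's quasi-likelihood test the replicate number was called (adjusted p under 0.05) in 8.01% of 14274 genes. Of 12 tubular injury genes, 10 were called, all higher in the number 1 libraries, and the summed level of the 12 was 48500 and 65600 CPM there against 6560 to 18600 CPM in the other 4. Levels below are CPM (counts scaled to a common library total) after scaling by TMM factors. Results for the intercalated cell genes are given across the groups, within equal numbers and between numbers.

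None of the intercalated cell genes differed between congested and IRI kidney beyond the spread of the libraries. Their log2 fold changes ran from -0.71 for Rhbg to 0.13 for Slc4a9 with a median of -0.28, against 0.00 over all genes tested, and 9 of 10 lay below 0 (50.4% of all genes). By edgeR, 0 of 10 genes were called at adjusted p under 0.05, where the percentage over all genes was 0, and 0 of 10 had an unadjusted p under 0.05 (2% of all genes). DESeq2 and limma-voom also called 0 of 10. In none of the 10 did the congested libraries lie all below or all above the IRI libraries, which occurred in 3.07% and 3.42% of all genes. The median of the 10 depended on single libraries. Leaving out congested replicate 1 gave 0.08 and leaving out congested replicate 3 gave -0.55. Leaving out IRI replicates 1, 2 or 3 gave -0.54, -0.04 or -0.12. Leaving out congested replicate 2 gave -0.39. Leaving out both libraries numbered 1, 2 or 3 gave -0.30, -0.10 or -0.43.

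Within equal replicate numbers the congested kidney was lower for 6 of 10 genes in number 1, 9 of 10 in number 2 and 3 of 10 in number 3, against 49.7%, 49.5% and 50.3% of all genes. The median differences of the 10 were -0.34, -0.54 and 0.04 on the log2 scale. Only Atp6v1c2 and Rhcg were lower in all 3 numbers (13.1% of all genes) and only Slc4a9 was higher in all 3 (13.1%). Some of these signs rest on differences near 0: -0.04 for both Atp6v1c2 and Rhcg in number 3, and 0.03 for Slc4a9 in number 2. Foxi1, Atp6v1b1 and Atp6v0d2 also lay near 0 in number 3, at 0.04, 0.03 and 0.01. The numbers thus did not give a common size of difference: Atp6v1g3 differed by -0.33, -1.25 and 0.21 and Rhbg by -1.67, -1.18 and 0.39 in numbers 1, 2 and 3. The edgeR fit blocked on replicate number again called 0 of 10, and 0 of 10 had an unadjusted p under 0.05 there, against 7.06% of all genes (2.98% lower). Without number 3 in either group, a choice made after seeing the data that leaves 1 residual degree of freedom, that fit called Atp6v1c2, Slc26a4, Rhbg and Rhcg, 4 of 10 genes, all lower. It also called 37.8% of all genes, 18.1% lower, so the count is not read as a result about these genes.

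**Figure D1:**
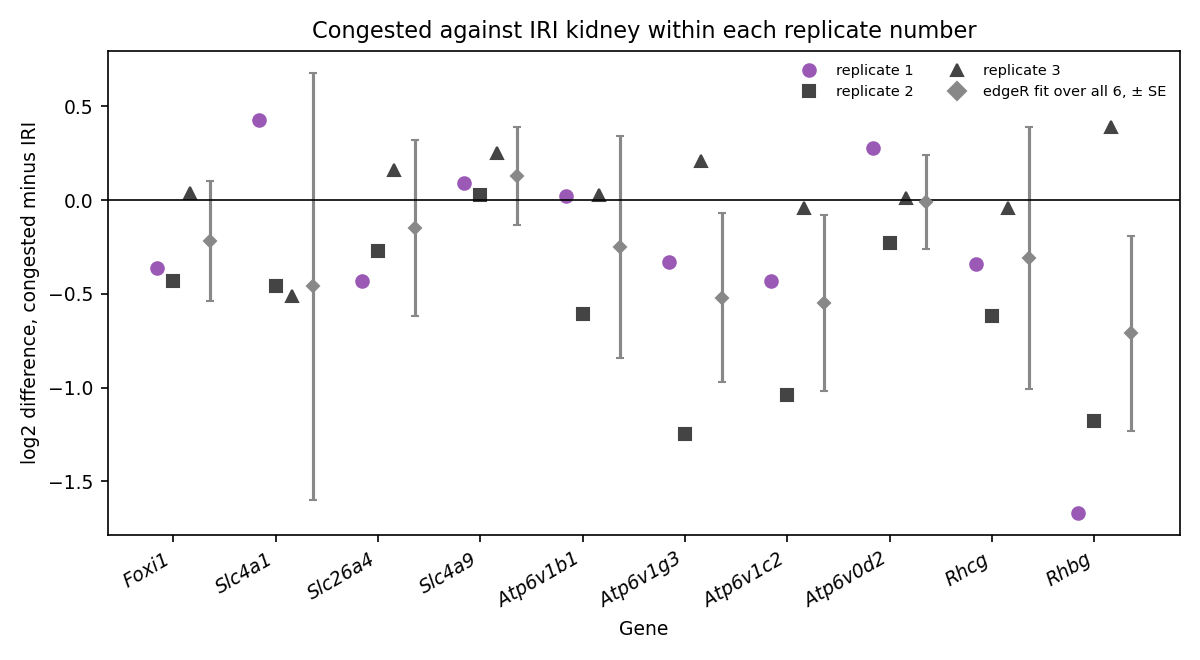
Log2 difference of TMM-scaled CPM, congested minus IRI, for each of the 10 genes within replicate numbers 1, 2 and 3 (points), beside the edgeR log2 fold change over all 6 libraries with its standard error (grey diamonds). Number 2 is below 0 for 9 of 10 genes and number 3 for 3 of 10.

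Foxi1, the regulator of the intercalated cell fate, lies on chr11:34204338-34208089 on the minus strand of GRCm38 (GENCODE, protein-coding). It was measured at 19.2, 30.1 and 30.3 CPM in IRI replicates 1, 2 and 3 and at 15, 22.3 and 31.2 CPM in the congested replicates. The lowest library of each group was number 1, and the groups overlapped over most of their range. Group means were 26.5 ± 6.3 CPM for IRI and 22.8 ± 8.09 CPM for congested kidney (SD, n = 3 each). The log2 fold change, congested over IRI, was -0.22 ± 0.32 (SE; edgeR adjusted p = 0.935), and it was 0.01 without congested replicate 1.

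Slc4a1, the bicarbonate exchanger of type A cells, varied most of the 10 genes. It lies on chr11:102348824-102366203 on the minus strand. Its level was 1.75, 35.6 and 54.7 CPM in IRI replicates 1, 2 and 3, from 22, 417 and 620 counts. The congested replicates held 2.42, 25.8 and 38.3 CPM, from 27, 353 and 488 counts. Each number 1 library was thus far below every other library, in both groups. The log2 fold change between the groups was -0.46 ± 1.14 (SE; edgeR adjusted p = 0.955), the largest standard error of the 10. Leaving out IRI replicate 3 or congested replicate 1 turned it to 0.26 or 0.07, and leaving out IRI replicate 1 or congested replicate 3 gave -1.02 or -1.11. Within numbers 1, 2 and 3 it differed by 0.43, -0.46 and -0.51.

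Red blood cells also make the SLC4A1 protein, so markers of that lineage were read beside the gene. The 12 red cell genes summed to 117 to 226 CPM, and IRI replicate 1, with the lowest Slc4a1, had the highest sum. Rhag, the erythroid relative of Rhbg and Rhcg, was at 0 in 4 of 6 libraries, whereas the haemoglobin gene Hbb-bs held 45.6 to 114 CPM. Haemoglobin genes, which make up most of the sum, have near-identical copies and are uncertain. Alas2, the erythroid enzyme of haem synthesis, was at 0.875, 4.01 and 2.12 CPM in IRI replicates 1, 2 and 3. It was at 2.24, 5.78 and 3.69 CPM in the congested replicates. Like Slc4a1 it was lowest in number 1 of each group, with a log2 difference of -1.33 for number 1. The joint edgeR test of the 3 numbers gave an adjusted p of 0.0609. The part of red cells in the Slc4a1 level was not tested.

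The type B genes had narrower ranges over the libraries than Slc4a1. Slc26a4, which encodes pendrin, lies on chr12:31519827-31559969 on the minus strand. It was at 34.8, 90.5 and 54.8 CPM in IRI replicates 1, 2 and 3 and at 25.8, 75.1 and 61.2 CPM in the congested replicates. Number 1 was the lowest and number 2 the highest in each group. The log2 fold change was -0.15 ± 0.47 (SE; edgeR adjusted p = 0.965), and leaving out IRI replicate 2 or congested replicate 1 gave 0.27 or 0.18. Slc4a9, the basolateral exchanger of type B cells, was at 32.1, 50.5 and 43.0 CPM in IRI and at 34.2, 51.4 and 51.2 CPM in congested replicates 1, 2 and 3. The libraries spanned a narrow range and the groups overlapped. It was the gene with a log2 fold change above 0, at 0.13 ± 0.26 (SE; edgeR adjusted p = 0.949), and it was -0.03 without IRI replicate 1.

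Among the pump subunits, Atp6v1b1 encodes the B subunit of the V1 sector found in intercalated cells and lies on chr6:83742990-83758855 on the plus strand. It was at 31.8, 134 and 105 CPM in IRI replicates 1, 2 and 3 and at 32.2, 87.6 and 107 CPM in the congested replicates. The number 1 libraries were nearly equal to each other and below the rest. Its log2 fold change was -0.25 ± 0.59 (SE; edgeR adjusted p = 0.953), and leaving out IRI replicate 2 or congested replicate 1 gave 0.15 or 0.11.

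Atp6v1g3, the kidney-restricted G subunit of the V1 sector, lies on chr1:138273738-138289462 on the plus strand. It was at 128, 120 and 45.7 CPM in IRI and at 102, 50.2 and 53.0 CPM in congested replicates 1, 2 and 3. Here the number 1 libraries were not low: they were the highest of their groups. The log2 fold change was -0.52 ± 0.45 (SE; edgeR adjusted p = 0.933). It ranged from -0.93, with congested replicate 1 left out, to -0.17, with both libraries numbered 2 left out, and leaving out IRI replicate 1 or 3 gave -0.27 or -0.86.

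The V1 subunit gene Atp6v1c2 was at 13.4, 41.9 and 25.3 CPM in IRI and at 9.87, 20.3 and 24.6 CPM in congested replicates 1, 2 and 3. IRI replicate 2 was the highest library, and without it the log2 fold change of -0.55 ± 0.47 (SE; edgeR adjusted p = 0.933) was -0.08. Leaving out IRI replicate 1 or congested replicate 3 gave -0.87 or -0.83, and leaving out congested replicate 1 gave -0.26. The span of this gene overlaps by 50 bases that of Pdia6 on the opposite strand, and the strand setting of the counting is not given in the sources used here. Atp6v0d2, a V0 sector subunit that macrophages and osteoclasts also express, was at 29.9, 53.8 and 44.1 CPM in IRI and at 36.4, 45.9 and 44.3 CPM in congested kidney. Its means were 42.6 ± 12 and 42.2 ± 5.08 CPM (SD, n = 3), with a log2 fold change of -0.01, which was 0.08 with total counts as scaling and 0.02 with the block or in limma-voom. Leaving out IRI replicate 2 or 3 gave 0.19 or 0.02, and leaving out congested replicate 1 gave 0.08. The 14 macrophage genes summed to 191 to 212 CPM in 5 libraries and to 407 CPM in congested replicate 1. Lyz2 alone held 197 CPM of the 407 CPM there, against 11.1 to 42 CPM in the other libraries. The part of macrophages in the Atp6v0d2 level was not tested.

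Both ammonia channel genes were lower on average in the congested kidney, within the spread. Rhcg, the apical and basolateral channel, lies on chr7:79593363-79617657 on the minus strand. It was at 29.3, 135 and 127 CPM in IRI and at 23.2, 87.8 and 124 CPM in congested replicates 1, 2 and 3. The 2 number 1 libraries were again the lowest, and the others reached similar levels in both groups. The log2 fold change was -0.31 ± 0.70 (SE; edgeR adjusted p = 0.953), and it was 0.13 without congested replicate 1. Rhbg, the basolateral channel, was the least abundant in CPM, at 7.48, 14.3 and 6.8 in IRI and 2.24, 6.22 and 8.95 in congested kidney. Congested replicate 1 was the lowest library, from 25 counts. Its log2 fold change was -0.71 ± 0.52 (SE; edgeR adjusted p = 0.933), and leaving out IRI replicate 2 or congested replicate 1 gave -0.29 or -0.33. Leaving out congested replicate 3, or number 3 of both groups, gave -1.16 or -1.35. The span of Rhbg overlaps by 11330 bases that of Gm38392 on the same strand, a gene with 0 to 2 counts per library. That of Rhcg overlaps by 1671 bases the span of Gm45170 on the same strand, with 1 to 14 counts. How reads in shared stretches were counted is not given in the sources used here. Whether this lowered the counts of either channel gene was not tested. Principal and connecting tubule cells also express both channels. The 14 principal cell genes summed to 482 to 1840 CPM and were lowest in the same number 1 libraries, at 666 and 482 CPM, and their part in the channel levels was not tested.

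**Figure D2:**
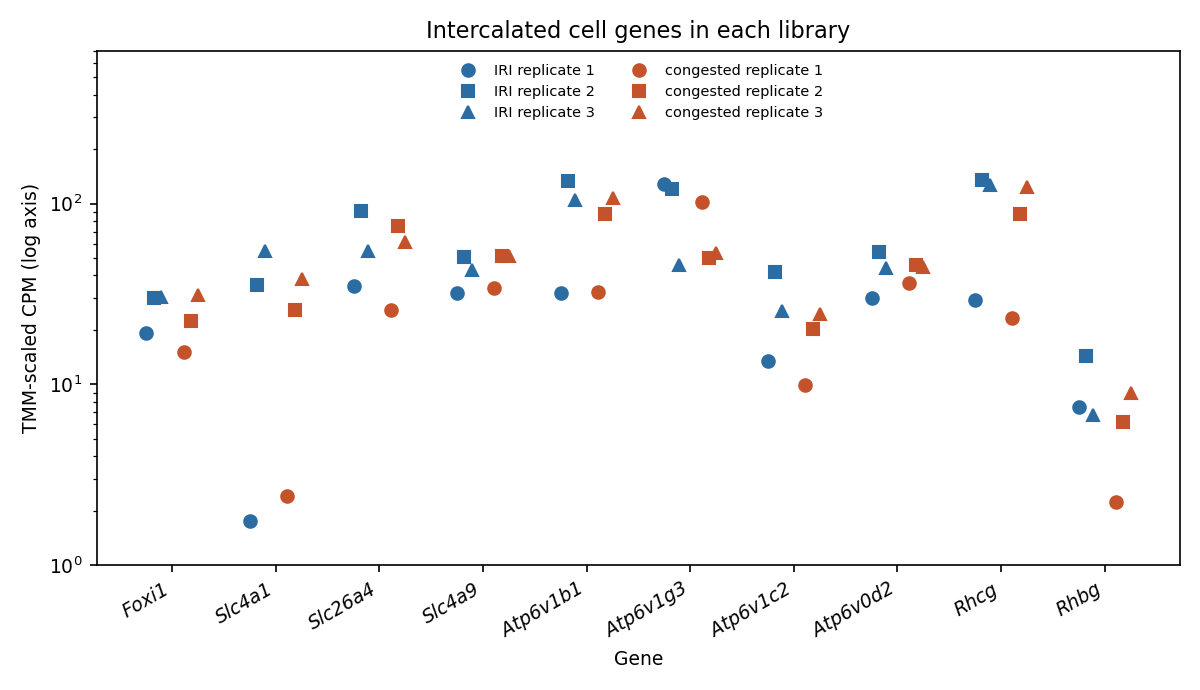
TMM-scaled CPM (log axis) of the 10 genes in each of the 6 libraries, with colour for the group and marker shape for the replicate number. Slc4a1 in the number 1 libraries, at 1.75 and 2.42 CPM, is far below its other libraries. The number 1 libraries of Atp6v1g3, at 128 and 102 CPM, are the highest of their groups.

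The replicate number separated several of the genes. Between the numbers edgeR called 4 of 10 genes at adjusted p under 0.05 (8.01% of all genes), all lower in number 1 (4.46% of all genes were lower and 3.56% higher there): Slc4a1, Rhcg, Atp6v1b1 and Slc26a4. Slc4a1 was 17.8-fold higher in the mean of numbers 2 and 3 than in number 1, a log2 difference of -4.16 ± 0.31 for number 1 (edgeR adjusted p = 0.00162). Rhcg was 4.51-fold higher (edgeR adjusted p = 0.00486), Atp6v1b1 3.36-fold (edgeR adjusted p = 0.0115) and Slc26a4 2.3-fold (edgeR adjusted p = 0.0247). Atp6v1c2, with a log2 difference of -1.25, had an adjusted p of 0.0505 in edgeR and was called with total counts as scaling, without the filter, without robust dispersion and in DESeq2. The differences of Foxi1, Slc4a9 and Atp6v0d2 were -0.73, -0.56 and -0.50, at edgeR adjusted p of 0.119, 0.189 and 0.259. In 8 of 10 genes both number 1 libraries lay below the other 4 (19.8% of all genes), and in 0 of 10 above them (18.4%). The exceptions were Rhbg and Atp6v1g3, the latter with a log2 difference of 0.84 (standard error 0.28, edgeR adjusted p = 0.128). Atp6v1g3 was called between the numbers in DESeq2 (adjusted p = 0.0323) and in edgeR without the filter on low counts (adjusted p = 0.00189). Number 1 was the higher on average in both. Adjusted p for replicate numbers, here and elsewhere, are from the joint test of the 3 numbers and not of number 1 alone.

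Each number holds 1 library of each group, and what a number shares is not stated. With each library left out in turn, which leaves 1 residual degree of freedom, Slc4a1 and Rhcg were called in all 6 fits. Atp6v1b1 was not called without IRI replicate 1 (edgeR adjusted p = 0.0539), nor Slc26a4 without congested replicate 1 (edgeR adjusted p = 0.153). The tubular injury genes, higher in the same libraries, had a median log2 difference of 1.71. Their part in these differences was not tested.

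**Figure D3:**
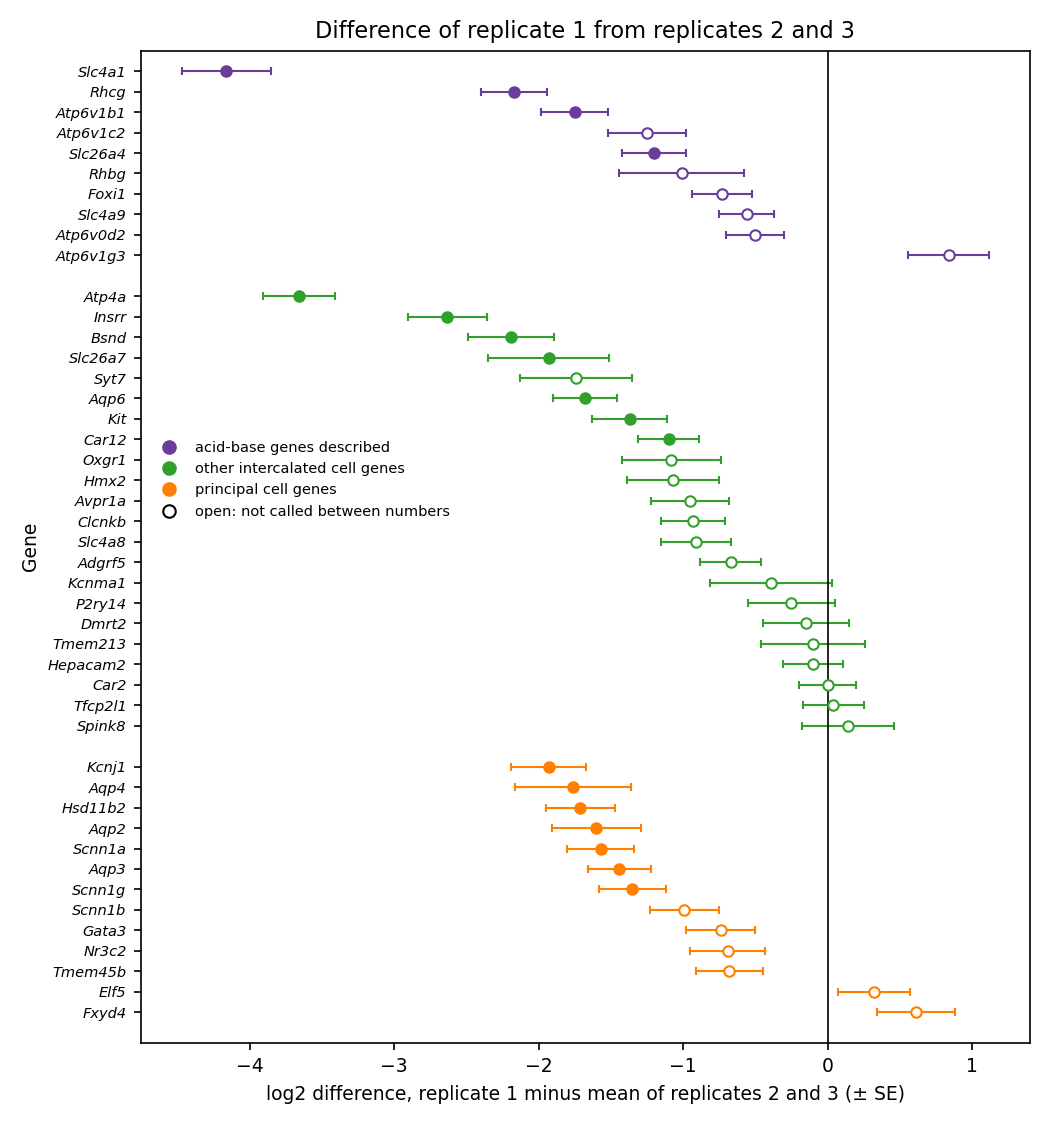
Log2 difference of replicate number 1 from the mean of numbers 2 and 3 with its standard error, from edgeR with group in the fit, for the 10 genes, other intercalated cell genes and principal cell genes. Filled points were called between the 3 numbers at adjusted p under 0.05. Slc4a1 at -4.16 is the lowest and Atp6v1g3 at 0.84 the highest point.

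Ratios of counts within a library do not depend on scaling and showed that the genes did not keep a fixed proportion. The ratio of the type A exchanger Slc4a1 to the type B exchanger Slc26a4 was 0.0502, 0.393 and 0.998 in IRI replicates 1, 2 and 3. It was 0.0941, 0.344 and 0.626 in the congested replicates. In each group the number 1 library had the lowest and the number 3 library the highest ratio. The ratio of Atp6v1g3 to Atp6v1b1, both V1 subunits, was 4.04, 0.892 and 0.436 in IRI and 3.16, 0.573 and 0.494 in congested kidney. The order over the libraries was thus the opposite. Against the ubiquitous G subunit gene Atp6v1g1, the ratio of Atp6v1g3 was 0.49, 0.579 and 0.281 in IRI and 0.494, 0.307 and 0.357 in congested kidney. It did not set number 1 apart.

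**Figure D4:**
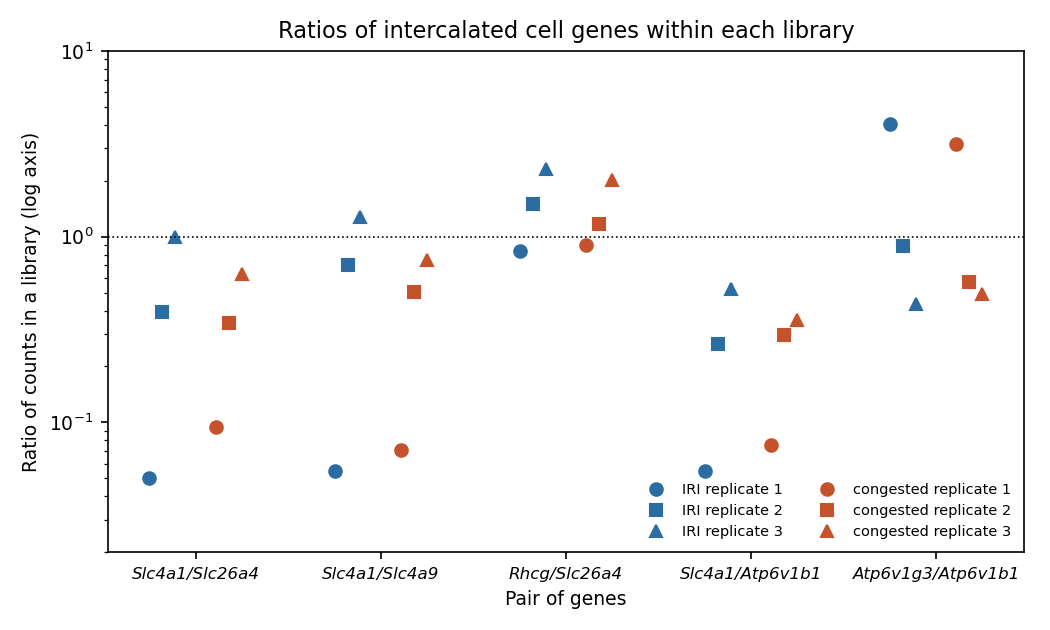
Ratio of counts of gene pairs in each library (log axis), with colour for the group and marker shape for the replicate number. The dotted line marks equal counts. The 3 ratios of Slc4a1 to another gene and the ratio of Rhcg to Slc26a4 are lowest in the number 1 libraries, and the ratio of Atp6v1g3 to Atp6v1b1 is highest there, at 4.04 and 3.16.

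Per kilobase of the longest annotated transcript, Atp6v1g3, Rhcg and Atp6v1b1 had the highest levels, with means over the 6 libraries of 44 ± 20, 41.9 ± 24.1 and 41.5 ± 21.1 CPM per kilobase (SD, n = 6). Their order did not hold from library to library: Atp6v1g3 exceeded Rhcg in 2 of 6 libraries. Atp6v1b1 exceeded the next gene, Slc26a4 at 18.5 ± 7.89 CPM per kilobase, in 6 of 6. Then followed Atp6v0d2 at 16.7, Atp6v1c2 at 14.4, Foxi1 at 10.5, Slc4a9 at 9.68, Slc4a1 at 5.82 and Rhbg at 3.96 CPM per kilobase, neighbours whose order was not the same in all 6 libraries. By the merged length of all annotated exons Atp6v1b1 stood at 18.9 CPM per kilobase. By the shortest coding transcript Rhcg, Atp6v1b1, Atp6v0d2 and Atp6v1c2 stood at 193, 128, 113 and 71.4 CPM per kilobase, above Atp6v1g3 at 44, so the order depends on the transcript assumed.

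The other subunits of the vacuolar proton pump are mostly present in all cells. Of 19 such genes, all tested, edgeR called 0 between the numbers (8.01% of all genes), with log2 differences of -0.43 to 0.59 for number 1 and a median of 0.09. Both number 1 libraries lay above the other 4 in 4 of them (Atp6v1b2, Atp6v0a1, Atp6v0b and Atp6v0e; 18.4% of all genes) and below in 2 (19.8%). Their summed level was 3710 to 4440 CPM in every library. Between the groups 13 of 19 lay below 0 with a median of -0.21, and 0 were called. Atp6v1f and Atp6v1e1, V1 subunits, had the smallest p of this list, with log2 fold changes of -0.65 and -0.48. Atp6v1d, also of V1, was the gene of the list whose groups did not overlap, at 212, 218 and 172 against 171, 149 and 161 CPM (log2 fold change -0.32 ± 0.20, SE, edgeR adjusted p = 0.933). That is 1 of 19, where 3.07% of all genes lay wholly below, so it is not read as particular to the list. The intercalated cell subunit gene Atp6v0a4, which proximal tubules also express, was at 219 to 390 CPM with a log2 difference of -0.40 for number 1 (edgeR adjusted p = 0.31).

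Of 25 other intercalated cell genes 22 were tested. Of these 7 were called between the numbers (8.01% of all genes) and all were lower in number 1 (4.46%): Atp4a, Insrr, Bsnd, Slc26a7, Aqp6, Kit and Car12. Atp4a, the catalytic subunit of a proton-potassium pump, was at 3.02, 39.6 and 33.8 CPM in IRI and 2.06, 29.2 and 26.1 CPM in congested replicates 1, 2 and 3, a log2 difference of -3.66 for number 1. The type A genes Aqp6, an intracellular water channel, and Slc26a7, a chloride-bicarbonate exchanger, had log2 differences of -1.68 and -1.93. Insrr, a receptor that senses alkaline pH, had one of -2.63. Slc26a7 was at 0.954, 3.07 and 13 CPM in IRI and 1.44, 1.54 and 6.91 CPM in congested replicates 1, 2 and 3. Its number 3 library was thus the highest of each group, and congested replicate 1 lay near congested replicate 2. Carbonic anhydrase II, encoded by Car2 and present in many cells, was at 430 to 653 CPM with a log2 difference of 0.00. The transcription factor gene Tfcp2l1 was at 315 to 486 CPM with one of 0.04. Neither set number 1 apart.

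Between the groups 13 of the 22 lay below 0 with a median of -0.10, and edgeR called 0. The smallest p belonged to Spink8 (log2 fold change -0.85, edgeR adjusted p = 0.933) and Tmem213 (-0.78), and Hepacam2 was the tested gene whose groups did not overlap, at 18.9, 26.5 and 19.2 against 17.1, 17.3 and 15.6 CPM (1 of 22, against 3.07% of all genes wholly below).

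Principal cell genes, of which 13 of 14 were tested, were also read between the numbers: 7 were called (8.01% of all genes), all lower in number 1 (4.46%), with a median log2 difference of -1.35 against -1.11 for the 10 genes. Whether the 2 medians differ was not tested. Between the groups 12 of 13 lay below 0 with a median of -0.29, 0 were called, and Fxyd4, a regulator of the sodium pump, had the smallest p (log2 fold change -0.80). Aqp2, the vasopressin-regulated water channel gene, was at 180, 459 and 426 CPM in IRI and at 71.3, 176 and 379 CPM in congested replicates 1, 2 and 3. The lists of the proximal tubule, thick ascending limb and distal and connecting tubule had 7 of 10, 3 of 8 and 4 of 10 genes called lower in number 1, with medians of -1.49, -1.43 and -1.06. Proximal acid-base genes had 2 of 8 called, the carbonic anhydrase genes Car4 and Car14, and a median of -0.28. Notch pathway genes of the choice between principal and intercalated fate, podocyte genes and tested red cell genes had 0 of 6, 0 of 6 and 0 of 7 called, macrophage genes 4 of 14, all higher in number 1, and endothelial genes 2 of 8, both lower. Over all genes 8.01% were called, 4.46% lower and 3.56% higher in number 1, so nothing is read from 0 called in a list this short. No gene of these lists was called between the groups. Their medians there were 0.02, -0.42, -0.22, -0.10, 0.27, 0.15, -0.10, 0.61 and 0.12 in the order given.

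The genes whose pattern over the 6 libraries was nearest to the mean of the 10 were Mvk, Pbld2, Nat8f5, Dhrs11, Cfap119, Pfkm, Ces1d and Sord, with root mean square differences of 0.0706 to 0.14 on the centred log2 scale among 10966 genes. Mvk, which encodes mevalonate kinase, was at 5.41, 16.4 and 12 CPM in IRI and 5.03, 11.5 and 13 CPM in congested replicates 1, 2 and 3. Of the 10 genes themselves Atp6v1c2 was nearest to that mean at 0.146, and Slc4a1 and Atp6v1g3 were farthest at 1.39 and 1.04. Nearest to Slc4a1 were Uroc1, Prok1 and Slc12a1, at 0.22, 0.322 and 0.362. Nearest to Slc26a4 were Cyp2e1, Ano9 and Slc39a5, at 0.09, 0.117 and 0.126. These distances describe 6 libraries that share the split between number 1 and the rest.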

How the data were processed

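The authors deposited unnormalized read counts, 1 row per gene symbol and 1 column per library. Per the submitters' processing notes, STAR 2.7.10a, featureCounts, Subread and GRCm38 were used, with no role stated. The library kit keeps strand, per the labels' protocols. How strand and multimapping reads were counted is not given in the sources used here. The genes and lists were chosen with earlier results of these data known.

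The model was fitted in R 4.3.3 with edgeR 4.0.16: TMM factors, filterByExpr (minimum count 10, minimum total 15; 14274 of 26971 features), robust dispersion, a quasi-likelihood test of the group term, and Benjamini-Hochberg adjustment over all genes tested. Differences between the 3 replicate numbers were tested jointly with group in the fit, and number 1 minus the mean of the others was taken from the same fit. Log2 CPM within numbers used a prior count of 2. Standard errors are the log2 fold change divided by the root of F. Lists were described by counts and medians, without a set test. The rule named the 10 genes, up to 3 genes of smallest p in each other list, non-overlapping genes of the other pump and other intercalated lists, and the nearest in pattern above a mean of 5 CPM. Not every gene it allows is printed. Genes called between the numbers, and Atp6v0a4, Car2, Tfcp2l1, Rhag, Hbb-bs, Alas2, Atp6v1b2, Atp6v0a1, Atp6v0b, Atp6v0e, Atp6v1g1 and Aqp2, were named after their values were seen.

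No 2 libraries of a group agreed within counting noise (chi-square over its degrees of freedom 17.4 to 178). Samples of equal number deviated together from their group means (correlation across genes 0.724, 0.342 and 0.429 for numbers 1, 2 and 3). The numbers were read as pairs in the differences within numbers and the blocked fits, but not in the unblocked fit between the groups. Congested replicate 3 correlated with IRI replicate 2 at 0.401, above the 0.342 of the pair numbered 2. Congested replicate 2 correlated with IRI replicate 3 at 0.249. Numbers 2 and 3 are thus not clearly separate pairs. Alternatives were other scaling and filters, DESeq2 1.42.0, limma-voom (limma 3.58.1), the replicate block, a length and GC trend (mgcv 1.9.3, 95.6% of tested genes matched) and libraries left out. The fits were tested on simulated data with differences between replicate numbers, shared by both groups, built in. The unblocked fit missed most planted changes there and the blocked fit fewer. That setting favours the block by design, so it does not show which fit suits these libraries. A gene that was not called is therefore not shown to be equal between the groups. Loci and lengths came from GENCODE for GRCm38, and promoters from RefSeq.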

Additional observations from a re-analysis of the deposited data

How the results depend on the processing

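The call of 0 of the 10 genes between the groups held under all 13 alternatives of scaling, filter, tool, block and trend, and with each library or number left out. With total counts as scaling the median of all genes was 0.10. Of the 10 genes, Atp6v0d2 changed sign under 6 of those 13 (0.08 with total counts, 0.02 in limma-voom, 0.02, 0.01 and 0.02 with the replicate block in edgeR, DESeq2 and limma-voom, and 0.04 with the block and the trend). With libraries left out, values ran from -0.50 to 0.01 for Foxi1, -0.65 to 0.15 for Atp6v1b1 (0.03 without replicate 2 in both groups), -0.21 to 0.19 for Atp6v0d2, -1.11 to 0.26 for Slc4a1, -0.03 to 0.29 for Slc4a9, -0.46 to 0.27 for Slc26a4, -0.80 to 0.13 for Rhcg, -0.93 to -0.17 for Atp6v1g3, -0.87 to -0.08 for Atp6v1c2 and -1.35 to -0.29 for Rhbg. The median of the 10 ran from -0.55 to 0.08. The block in DESeq2 called 8 genes over the table and none of the 10. It changed no other call.

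Chosen after seeing the data, the replicate block with a number left out of both groups leaves 1 residual degree of freedom. It called 12, 9 and 5457 genes without numbers 1, 2 and 3, where Atp6v1b1 and Atp6v0d2 were at 0.02 and 0.14 without number 2 and Atp6v0d2 at 0.02 without number 3. Without number 3 it called 4 of the 10 genes lower, with log2 fold changes of -0.78 for Atp6v1c2, -0.34 for Slc26a4, -1.43 for Rhbg and -0.49 for Rhcg, against 37.8% of all genes called. Between the numbers, no filter gave 3231 genes and 7 of the 10, and DESeq2 1863 genes and 6 of the 10, against 1144 and 4. In both, the added calls include Atp6v1g3, which was higher in number 1. With each library left out, chosen after seeing the data, the counts ran from 854 to 7841 genes and from 3 to 10 of the 10. The causes were not tested. Among the 10 genes the lowest counts behind a value were 22 and 27 for Slc4a1 and 25 for Rhbg. Some genes of the other lists rested on fewer, such as Alas2 and Slc26a7 with 11 and 12 counts in IRI replicate 1.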
